A study of Homo sapiens with 6 samples.

Results

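The 10 genes described here, ATF4, ATF3, ATF5, DDIT3, TRIB3, CHAC1, ASNS, SESN2, GDF15 and EIF4EBP1, are core genes of the ATF4 stress response. They were taken by name from a table of 20036 genes, and all 10 were present and passed the filter on low counts, which left 12292 genes. The RNA came from PANC-1, a long-established line of human pancreatic carcinoma cells, and was sequenced in 3 libraries of cells that had received an SHMT2 knockdown lentivirus and 3 libraries of cells that had received a null virus as control. All 6 libraries therefore come from virus-treated cells of 1 line. The knockdown sequence, the time after delivery and any selection are not stated in the labels.

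ATF4 is a basic leucine zipper (bZIP) transcription factor of the integrated stress response. Kinases that sense uncharged tRNA, unfolded protein, double-stranded RNA or haem shortage phosphorylate the initiation factor eIF2, which slows general translation while upstream reading frames let the ATF4 message be translated more, so ATF4 protein can change with little change of its mRNA. ATF4 then binds C/EBP-ATF elements, usually with a C/EBP partner, and switches on genes for amino acid supply, for other stress factors and for feedback. SHMT2, the enzyme targeted here, takes serine to glycine in mitochondria and is itself a known target of this pathway.

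The libraries held 15405884 to 19075734 counts. SHMT2 had 139, 56 and 101 counts in knockdown replicates 1, 2 and 3, against 2113, 2284 and 2417 counts in control replicates 1, 2 and 3, so the target went with the labels in every library. Knockdown replicate 2 and control replicate 1 stood apart from the other libraries of their group. The mean chi-square of counts per gene was 70.7 and 72.3 between knockdown replicate 2 and its partners and 2.4 between those partners, and it was 24.6 and 29.4 for control replicate 1 against 2.04 for its partners. Knockdown replicate 2 also had 10.4% of its counts in mitochondrially encoded genes, where the other knockdown libraries had 4.72% each and the controls 5.78% to 6.86%. All 7 ductal markers listed for this cell type were tested, and 3 were called higher and 2 lower in edgeR, with a summed level of 1970 to 2405 CPM in knockdown libraries and 1427 to 1770 CPM in control libraries, where CPM is the count scaled to the TMM-adjusted library size. KRT8 was high throughout, at 1410 ± 90.8 CPM in knockdown and 947 ± 101 CPM in control libraries (mean ± SD, n = 3 each). The ductal keratin KRT19 was at 69.8 ± 12.9 CPM in knockdown libraries and close to 0 in control libraries, at 0.152 ± 0.137 CPM (SD, n = 3 each). EPCAM went the other way, at 6.95 ± 0.863 CPM in knockdown and 18.1 ± 0.527 CPM in control libraries, and CDH1 was low in both, at 3.97 ± 1.06 and 0.937 ± 0.455 CPM in knockdown and control libraries. The part of these marker differences in the results below was not tested. Of 24 markers of immune, fibroblast, endothelial, acinar and endocrine cells, 9 had 0 counts in every library and 3 had enough counts to be tested (CD14, KDR and COL1A1). The summed level of the 24 ran from 51.1 to 56.3 CPM in knockdown libraries and from 80.4 to 94.1 CPM in control libraries, most of it COL1A1, while KDR was at 6.20 ± 0.591 CPM in knockdown and 0.257 ± 0.00855 CPM in control libraries (SD, n = 3 each). The part of this sum in the results was not tested either. The labels do not say whether replicates were separate cultures, so p-values measure how much these libraries vary, and that variation may be technical. In RNA from whole cultures, fewer cells that express a gene and less RNA of it per cell cannot be told apart.

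The stress genes moved unevenly. Of the 10, 7 rose in knockdown cells (ATF3, DDIT3, TRIB3, CHAC1, ASNS, SESN2 and GDF15), EIF4EBP1 fell, and ATF4 and ATF5 were not called. A gene is called here when its Benjamini-Hochberg adjusted p in edgeR's quasi-likelihood test, taken over all tested genes, is below 0.05. Calls were common in this comparison, with 51.8% of all tested genes called, 26.7% higher and 25.1% lower, and the members' counts are to be read against these shares. The libraries of the groups did not overlap for the same 8 genes, 7 above and 1 below, where 61.4% of all tested genes did not overlap, 31.3% lying wholly above and 30.2% wholly below. A call with at least a 2-fold rise was made for 5 of the 10 (ATF3, DDIT3, CHAC1, ASNS and GDF15), against 9.81% of tested genes. The median log2 fold change was 1.05 over the 10 genes and 0.00 over all tested genes. The fold changes ran from -1.28 for EIF4EBP1 to 2.27 for ASNS.

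**Figure D1:**
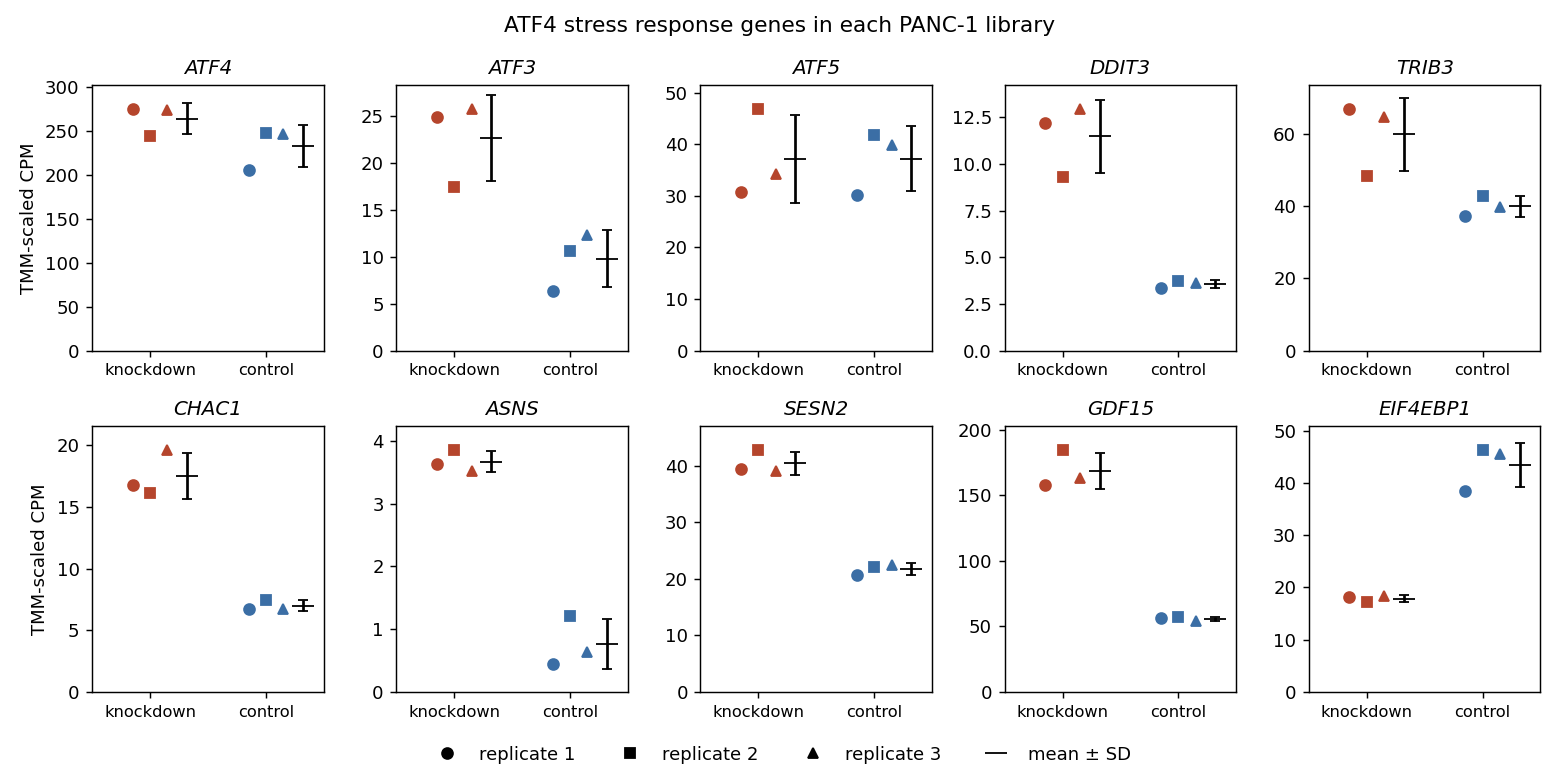
Level of each of the 10 genes in TMM-scaled CPM (counts relative to library size, linear axes from 0) in knockdown libraries (left, red) and control libraries (right, blue), with circles, squares and triangles for replicates 1, 2 and 3 and the mean ± SD beside them. All 3 knockdown points lie above the controls for 7 genes and below them for EIF4EBP1, while the groups overlap for ATF4 and ATF5.

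The 4 transcription factors of the set, all bZIP proteins, were divided, with ATF3 and DDIT3 higher and no call for ATF4 and ATF5. ATF4 (ENSG00000128272, chromosome 22, 39519695 to 39522683, plus strand) had 275, 244 and 274 CPM in knockdown replicates 1, 2 and 3, against 206, 247 and 247 CPM in control replicates 1, 2 and 3. Knockdown replicate 2 lay below control replicates 2 and 3, so the groups overlapped. Gene coordinates are those of the deposited count table, whose genome build is not given in the sources used here. Its change of 0.18 on the log2 scale (SE 0.10, 95% interval -0.06 to 0.42) was not called (adjusted p = 0.184, edgeR). It was called in a fit with a gene length offset (0.27, adjusted p = 0.0172, edgeR). It was also called at 0.16 when knockdown replicate 2 and control replicate 1 were both left out (adjusted p = 0.000212, edgeR), a fit on 2 libraries a group. That fit keeps the most alike libraries of each group, so its p-values rest on a reduced spread. In it 73.6% of all tested genes were called. GENCODE 29 names 4 pseudogenes of ATF4, 4 of ASNS and 1 of EIF4EBP1, which the count table does not list, and the treatment of reads that match several places is not stated.

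ATF5 (ENSG00000169136, chromosome 19, 49928702 to 49933935, plus strand), a bZIP factor whose translation is also governed by upstream reading frames, showed no call. It had 30.7, 46.8 and 34.1 CPM in knockdown replicates 1, 2 and 3, against 30.1, 41.8 and 39.8 CPM in control replicates 1, 2 and 3. The highest value of all was in knockdown replicate 2 and the lowest in control replicate 1, the same libraries that stood apart in the whole transcriptome. On the log2 scale ATF5 changed by 0.00 (SE 0.19, 95% interval -0.44 to 0.43, adjusted p = 0.993, edgeR). Without knockdown replicate 2 and control replicate 1 it was -0.33 and called lower (adjusted p = 4.87e-05, edgeR). This p-value has the same limit as that of ATF4, and 36.7% of all tested genes were called lower in that fit. Exons of NUP62 and IL4I1 on the other strand cover part of ATF5 (21.2% of its exon bases in GENCODE 29 with both genes), and whether counting used strand is not stated. NUP62, which encodes a nuclear pore protein, fell by 0.63 on the log2 scale (SE 0.08, adjusted p = 0.000583, edgeR).

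ATF3 (ENSG00000162772, chromosome 1, 212565334 to 212620777, plus strand), a bZIP factor that forms dimers with other members of the family and often acts as a repressor, rose. It had 25.0, 17.5 and 25.8 CPM in knockdown replicates 1, 2 and 3, against 6.42, 10.7 and 12.4 CPM in control replicates 1, 2 and 3. Values varied widely within both groups without overlap, and the nearest pair of values across groups was knockdown replicate 2 and control replicate 3. ATF3 was higher by 1.21 on the log2 scale (SE 0.25, adjusted p = 0.00547, edgeR). Control replicate 1 stood at 55.6% of the mean of the other controls, and knockdown replicate 2 at 68.8% of the mean of its partners. With both left out the log2 fold change was 1.14. Of the 20 nearest tested genes, 10 on each side, 11 were also called higher and 1 lower, with a median log2 fold change of 0.41. Among all tested genes, 26.7% were called higher and 25.1% lower. Whether the rise of ATF3 is part of a regional shift was not tested.

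DDIT3 (ENSG00000175197, chromosome 12, 57516588 to 57521737, minus strand), which encodes CHOP, the C/EBP-family factor associated with cell death under prolonged endoplasmic reticulum (ER) stress, rose more evenly. It had 12.2, 9.29 and 12.9 CPM in knockdown replicates 1, 2 and 3, against 3.34, 3.74 and 3.61 CPM in control replicates 1, 2 and 3. The lowest knockdown value was more than 2-fold above the highest control value. The mean was 3.22-fold that of the controls, a difference of 1.69 on the log2 scale (SE 0.17, adjusted p = 0.000236, edgeR). Exons of MARS1 and MBD6 on the other strand take in 31.6% of the exon bases of DDIT3. MARS1, the cytosolic methionyl-tRNA synthetase, changed by -0.07 (adjusted p = 0.597) and MBD6 by 0.33 (adjusted p = 0.448), neither of them called in edgeR. The order among the 4 factors, from the largest fold change to the smallest, was DDIT3, ATF3, ATF4 and ATF5, and the 95% intervals of DDIT3 (1.29 to 2.09) and ATF3 (0.62 to 1.80) overlapped.

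**Figure D2:**
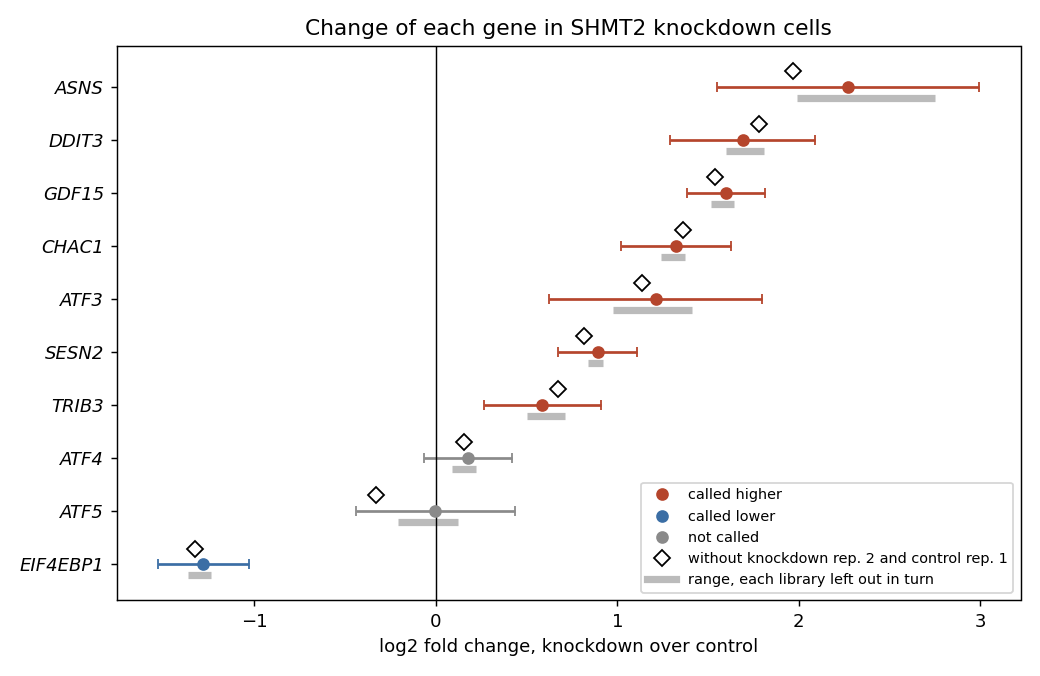
Log2 fold change of each gene, knockdown over control, as a point with its 95% interval (red called higher, blue called lower, grey not called), with the range over fits that leave out each library in turn (grey bar) and the value without knockdown replicate 2 and control replicate 1 (open diamond). The 7 called rises run from 0.59 for TRIB3 to 2.27 for ASNS, and ATF5 moves to -0.33 without the libraries that stood apart.

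TRIB3 (ENSG00000101255, chromosome 20, 362835 to 397559, plus strand), a pseudokinase that binds ATF4 and CHOP and dampens their action, had 66.8, 48.3 and 64.5 CPM in knockdown replicates 1, 2 and 3, against 37.1, 42.8 and 39.7 CPM in control replicates 1, 2 and 3. Knockdown replicate 2 lay close above the highest control, and the other knockdown libraries were well clear of it. The log2 fold change of 0.59 (SE 0.14, adjusted p = 0.0093, edgeR) was the smallest among the called rises. Of its paralogs, TRIB2 rose (log2 fold change 1.21, adjusted p = 0.000363) and TRIB1 changed by -0.48 without a call (adjusted p = 0.0502, edgeR). TRIB1 lay at the threshold and was called lower in 7 of 18 refits with other settings or fewer libraries, among them the fit without knockdown replicate 2 (-0.72, adjusted p = 0.00132, edgeR). PPP1R15A, the phosphatase subunit that CHOP and ATF4 are known to induce as feedback on eIF2, was named after its value was seen and changed by 0.17 without a call (adjusted p = 0.174, edgeR).

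CHAC1 (ENSG00000128965, chromosome 15, 40952962 to 40956512, plus strand), which cleaves glutathione in the cytosol to release cysteinylglycine and 5-oxoproline, had 16.7, 16.1 and 19.6 CPM in knockdown replicates 1, 2 and 3, against 6.74, 7.48 and 6.71 CPM in control replicates 1, 2 and 3. All knockdown values were more than 2-fold above all control values. That is a rise of 1.33 on the log2 scale (SE 0.13, adjusted p = 0.000199, edgeR). Its paralog CHAC2, which has the same activity at a lower rate, moved the other way, to 25.9 ± 4.09 CPM in knockdown libraries, against 39.2 ± 3.09 CPM in control libraries (SD, n = 3 each), a fall of 0.60 on the log2 scale (SE 0.14, adjusted p = 0.0081, edgeR).

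ASNS (ENSG00000070669, chromosome 7, 97851677 to 97872542, minus strand), which makes asparagine from aspartate and glutamine and is a classic target of amino acid shortage, showed the largest fold change of the 10 from the lowest level. It had 73, 63 and 68 counts in knockdown replicates 1, 2 and 3, against 7, 18 and 10 counts in control replicates 1, 2 and 3. The knockdown libraries were tightly grouped at 3.67 ± 0.167 CPM, and the controls at 0.759 ± 0.396 CPM (SD, n = 3 each) rested on few counts. ASNS rose by 2.27 on the log2 scale (SE 0.31, adjusted p = 0.000847, edgeR), and with each library left out in turn it ran from 1.99 to 2.75. In GENCODE 29, 44.6% of the exon bases of ASNS are shared on the same strand with AC079781.5, a gene that the count table does not list, so the level of ASNS is uncertain.

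The promoters of 9 of the 10 genes were looked up in the RefSeq promoter table (GRCh38.p14), which gives 250 bases before and 50 after each listed start and lists 17 starts for these 9 genes. The core of the C/EBP-ATF element was searched as TGATGNAA on both strands. It was found at 1 start each of ATF3, ASNS and CHAC1, and at none of the remaining starts, which include every listed start of ATF4, ATF5, DDIT3, TRIB3, SESN2 and GDF15. Across the table, 3.62% of 35116 promoters hold the motif. The palindromic cAMP response element TGACGTCA was found at 0 of the 17 starts and in 1.85% of all promoters. The 250 bases upstream of the 3 matching starts are shown in transcript orientation, since these 3 genes are among the called rises, with the match in capitals.
ASNS: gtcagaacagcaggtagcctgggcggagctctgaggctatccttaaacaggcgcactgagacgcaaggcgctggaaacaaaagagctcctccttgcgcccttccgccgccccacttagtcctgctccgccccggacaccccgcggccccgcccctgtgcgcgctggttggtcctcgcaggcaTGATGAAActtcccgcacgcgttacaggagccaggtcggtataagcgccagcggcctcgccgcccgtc
CHAC1: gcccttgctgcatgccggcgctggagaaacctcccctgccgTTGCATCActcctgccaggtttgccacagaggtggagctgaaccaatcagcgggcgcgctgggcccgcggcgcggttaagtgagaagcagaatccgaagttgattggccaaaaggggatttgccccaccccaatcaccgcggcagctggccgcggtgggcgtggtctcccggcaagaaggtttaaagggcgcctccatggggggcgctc
ATF3: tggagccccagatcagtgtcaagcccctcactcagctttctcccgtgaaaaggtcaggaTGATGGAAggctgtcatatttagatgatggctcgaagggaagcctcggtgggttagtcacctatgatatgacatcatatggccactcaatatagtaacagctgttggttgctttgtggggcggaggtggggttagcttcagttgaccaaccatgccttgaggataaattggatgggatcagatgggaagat
The ASNS stretch is chr7:97872409-97872658 (minus strand), and its match begins at position -68 from the start as TGATGAAA. The CHAC1 stretch is chr15:40953221-40953470 (plus strand), with its match at position -209 on the opposite strand, where it reads TGATGCAA. The ATF3 stretch is chr1:212565157-212565406 (plus strand), the farther upstream of 2 listed starts, with TGATGGAA at position -191. By the count table's coordinates, whose build is not stated, the whole CHAC1 stretch lies inside the gene, which begins at 40952962. The ASNS and ATF3 stretches lie partly inside their genes, whose starts are at 97872542 and 212565334. The ASNS match is inside ASNS, and the ATF3 match is outside ATF3. A match describes the letters in these windows, and elements outside them, farther from a start or within introns, were not searched.

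SESN2 (ENSG00000130766, chromosome 1, 28259518 to 28282491, plus strand), a leucine sensor that holds back the kinase complex TORC1 through GATOR2, had 39.5, 42.8 and 39.0 CPM in knockdown replicates 1, 2 and 3, against 20.6, 22.2 and 22.5 CPM in control replicates 1, 2 and 3. The spread within each group was small and the groups were far apart. SESN2 rose by 0.89 on the log2 scale (SE 0.09, adjusted p = 0.000275, edgeR). Its paralog SESN1, a p53 target, was not called at 13.9 ± 1.26 CPM in knockdown and 13.1 ± 0.484 CPM in control libraries (adjusted p = 0.585, edgeR), and SESN3 had 8, 10 and 13 counts in knockdown and 1, 7 and 6 counts in control replicates 1, 2 and 3, too few to be tested.

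GDF15 (ENSG00000130513, chromosome 19, 18374731 to 18389176, plus strand), a secreted cytokine that reports cellular stress and suppresses appetite through the brainstem receptor GFRAL, had 3182, 3015 and 3150 counts in knockdown replicates 1, 2 and 3, against 894, 851 and 853 counts in control replicates 1, 2 and 3. No knockdown library was below 158 CPM and no control library was above 56.9 CPM. The mean was 3.02-fold that of the controls. On the log2 scale GDF15 rose by 1.60 (SE 0.09, adjusted p = 2.08e-05, edgeR).

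EIF4EBP1 was the exception. It encodes 4E-BP1, which binds the cap-binding protein eIF4E and blocks translation initiation until TORC1 phosphorylates it, and it is a known ATF4 target in pancreatic beta cells of the mouse. It had 18.2, 17.2 and 18.3 CPM in knockdown replicates 1, 2 and 3, against 38.5, 46.2 and 45.5 CPM in control replicates 1, 2 and 3. Every knockdown library was below every control, with a knockdown mean at 41.2% of the controls. EIF4EBP1 thus fell by 1.28 on the log2 scale (SE 0.11, adjusted p = 0.000107, edgeR). With a gene length offset the change of EIF4EBP1 was smaller, at -0.98 (adjusted p = 0.000983, edgeR). Its paralog EIF4EBP2 was not called at 136 ± 17.2 CPM in knockdown and 132 ± 4.25 CPM in control libraries (adjusted p = 0.721, edgeR), and EIF4EBP3 had at most 4 counts in a library. EIF4EBP1 (ENSG00000187840) lies on chromosome 8, from 38030534 to 38060365 on the plus strand. Among all tested genes, 25.1% were called lower and 26.7% higher. Of the 20 nearest tested genes, 10 on each side from FUT10 to PLEKHA2, 14 were also called lower and 2 higher, with a median log2 fold change of -0.99. Whether the fall of EIF4EBP1 is part of that regional shift was not tested.

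Knockdown replicate 2 was not equally far from its partners in all 10 genes. Against the mean of knockdown replicates 1 and 3, its CPM stood at 68.8% for ATF3, 73.6% for TRIB3, 73.8% for DDIT3, 88.8% for CHAC1, 88.9% for ATF4 and 94.1% for EIF4EBP1. It was higher than its partners for ASNS (108%), SESN2 (109%), GDF15 (115%) and ATF5 (144%). This library is also the one with 10.4% mitochondrial counts, and the part of that in these values was not tested. When it and control replicate 1 were left out, a choice made with the data known, 8 of the 10 genes were called higher and 2 lower, the additional calls being ATF4 and ATF5. Calls became more common over all genes in that fit, with 73.6% of tested genes called, 36.9% higher and 36.7% lower, against 51.8% with all libraries.

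Levels of different genes can be set side by side only per length, as the deposited FPKM values (counts scaled to gene length and library total) give them. ATF4 was the most abundant of the 10 in every library, at 104 ± 11.3 FPKM in knockdown and 86.8 ± 8.40 FPKM in control libraries (SD, n = 3 each). In knockdown libraries GDF15 was next at 82.9 ± 3.19 FPKM, followed by EIF4EBP1 at 20.9 ± 1.61 FPKM. In control libraries the order of those genes was reversed, with EIF4EBP1 at 47.9 ± 4.48 FPKM above GDF15 at 25.9 ± 0.831 FPKM, and neither pair overlapped. TRIB3, ATF5 and SESN2 came after them. In knockdown libraries TRIB3 overlapped EIF4EBP1 and ATF5, and ATF5 overlapped SESN2, whereas in control libraries TRIB3 and ATF5 overlapped and SESN2 lay below both. DDIT3 (9.08 ± 1.88 and 2.65 ± 0.144 FPKM in knockdown and control libraries) overlapped CHAC1 (8.79 ± 1.20 and 3.30 ± 0.21 FPKM) in the knockdown group alone, and ATF3 (5.83 ± 1.39 and 2.36 ± 0.728 FPKM) overlapped DDIT3 in the controls alone. ASNS was lowest throughout, at 0.769 ± 0.0117 and 0.15 ± 0.0786 FPKM, and its knockdown level exceeded that of 14.9% of tested genes. That level and rank are uncertain, because ASNS shares exon bases with AC079781.5.

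**Figure D3:**
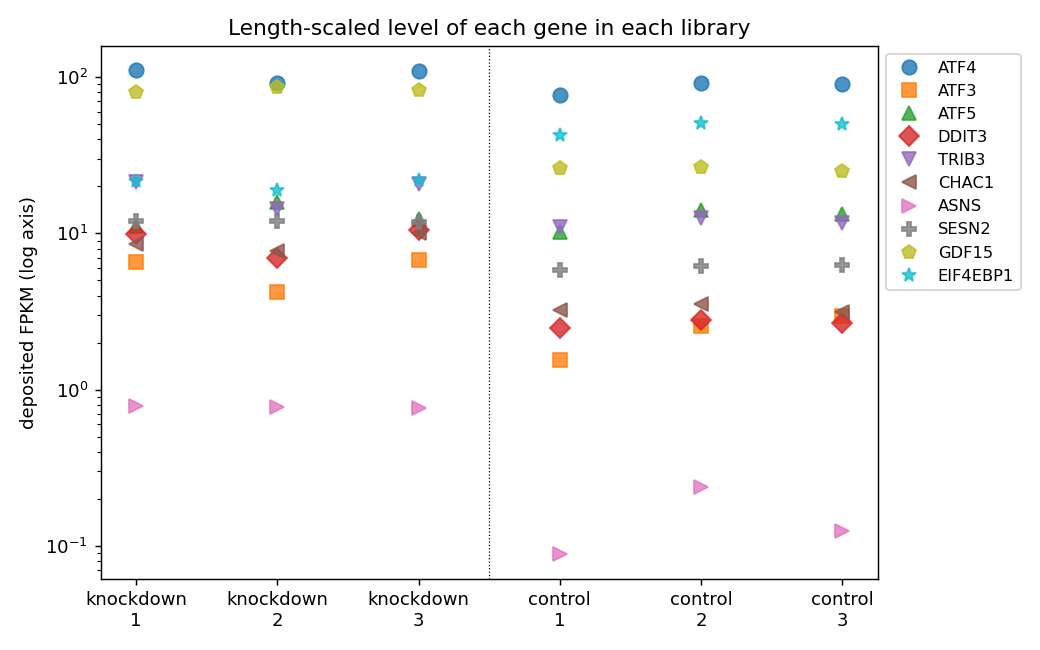
Deposited FPKM of the 10 genes in each library, on a log axis, with knockdown libraries left of the dotted line and control libraries right of it. ATF4 is highest and ASNS lowest in all 6 libraries, and GDF15 and EIF4EBP1 change places between the groups.

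Counts of calls in the lists of related genes that follow are to be read against the shares of all tested genes, 26.7% higher and 25.1% lower, or 36.9% higher and 36.7% lower without knockdown replicate 2 and control replicate 1. Of 14 tested genes for eIF2 kinases, their regulators and the phosphatase subunits, 3 rose and 4 fell (median log2 fold change -0.01), a share near that of all tested genes. The kinases of the ER, EIF2AK3 (PERK), and of amino acid shortage, EIF2AK4 (GCN2), fell by 0.55 and 0.53 on the log2 scale (adjusted p = 0.00819 and 0.00377, edgeR), and GCN1, which activates GCN2 on ribosomes, fell by 0.42 (adjusted p = 0.00334, edgeR). The phosphatase subunit PPP1R15B, which reverses eIF2 phosphorylation, rose to 203 ± 5.67 CPM in knockdown libraries, against 149 ± 3.32 CPM in control libraries (SD, n = 3 each). The remaining kinases, named after their values were seen, were EIF2AK2 (PKR), which responds to double-stranded RNA and rose by 0.38, and EIF2AK1 (HRI), which changed by -0.08 without a call. The call of EIF2AK2 was at the threshold (adjusted p = 0.0493, edgeR) and was lost in 11 of 18 refits. Without knockdown replicate 2 and control replicate 1, the list had 5 members higher and 7 lower, where calls over all genes rose as well. Without control replicate 2 the list had 1 higher, where calls higher over all tested genes went from 3284 to 2440. These are RNA levels, and kinase activity was not measured.

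Of 19 tested genes for possible bZIP partners, 5 were higher and 5 lower (median 0.03), close to the shares of all tested genes. CEBPG, a C/EBP partner of ATF4 on amino acid genes, rose to 175 ± 18.3 CPM in knockdown libraries, against 108 ± 2.59 CPM in control libraries (SD, n = 3 each). MAFF rose by 1.02 and NFE2L2, the antioxidant factor NRF2, by 0.98, and JUN fell by 0.58 on the log2 scale. Without knockdown replicate 2 and control replicate 1, 6 were higher and 8 lower.

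Other genes of the response were tested through lists whose members partly overlap. Among 16 tested stress targets outside the amino acid genes, 13 rose and 1 fell, with a median log2 fold change of 0.62. KLHL24 rose to 30.8 ± 0.479 CPM in knockdown libraries, against 8.81 ± 1.10 CPM in control libraries, and the ATF3-related repressor JDP2 rose to 14.5 ± 1.17 CPM, against 6.67 ± 0.572 CPM (SD, n = 3 each). The secreted peptide gene ADM2 rose by 1.51 and the lipoprotein receptor VLDLR by 1.83. The member that fell was TNFRSF10B, which encodes the death receptor DR5, a target of both CHOP and p53, at -0.85 (adjusted p = 0.000874, edgeR). NUPR1 and DDIT4 were picked after their values were seen. NUPR1, a small chromatin-associated stress protein, had 38, 13 and 43 counts in knockdown replicates 1, 2 and 3, against 1, 2 and 1 counts in control replicates 1, 2 and 3. DDIT4, which inhibits TORC1, rose by 1.61 (SE 0.22, adjusted p = 0.000888, edgeR).

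Amino acid synthesis and transport genes that ATF4 is known to act on had 7 of 20 tested higher and 7 lower (median -0.14). Among all tested genes, 51.8% were called, 26.7% higher and 25.1% lower. Over 19 alternative settings, sets of libraries or thresholds, 5 to 8 of the list were higher and 4 to 9 lower. Calls over all tested genes ran from 2143 to 4576 higher and from 2023 to 4559 lower in these alternatives. The mitochondrial folate enzyme ALDH1L2 rose by 2.73, the transsulfuration enzyme CTH by 1.79 and the cystine transporter SLC7A11 by 1.52. The leucine transporter SLC7A5 fell to 325 ± 19.0 CPM in knockdown libraries, against 577 ± 9.76 CPM in control libraries (SD, n = 3 each). Of 13 genes for cytosolic tRNA synthetases and the tRNA exporter XPOT, 5 rose and 1 fell (median 0.13), with EPRS1 higher by 1.05, NARS1 by 0.41 and AARS1 by 0.37, and YARS1 lower at -0.44. With knockdown replicate 1 left out 3 rose, and with either control replicate 2 or control replicate 3 left out 2 rose. Calls higher over all tested genes went from 3284 to 2698, 2440 and 2470 in those fits, in that order. With a gene length offset, 2 rose and 3 fell. Over all tested genes, that fit called 2812 higher and 3792 lower, against 3284 and 3088 without the offset. Without both libraries that stood apart, 7 rose and 2 fell.

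**Figure D4:**
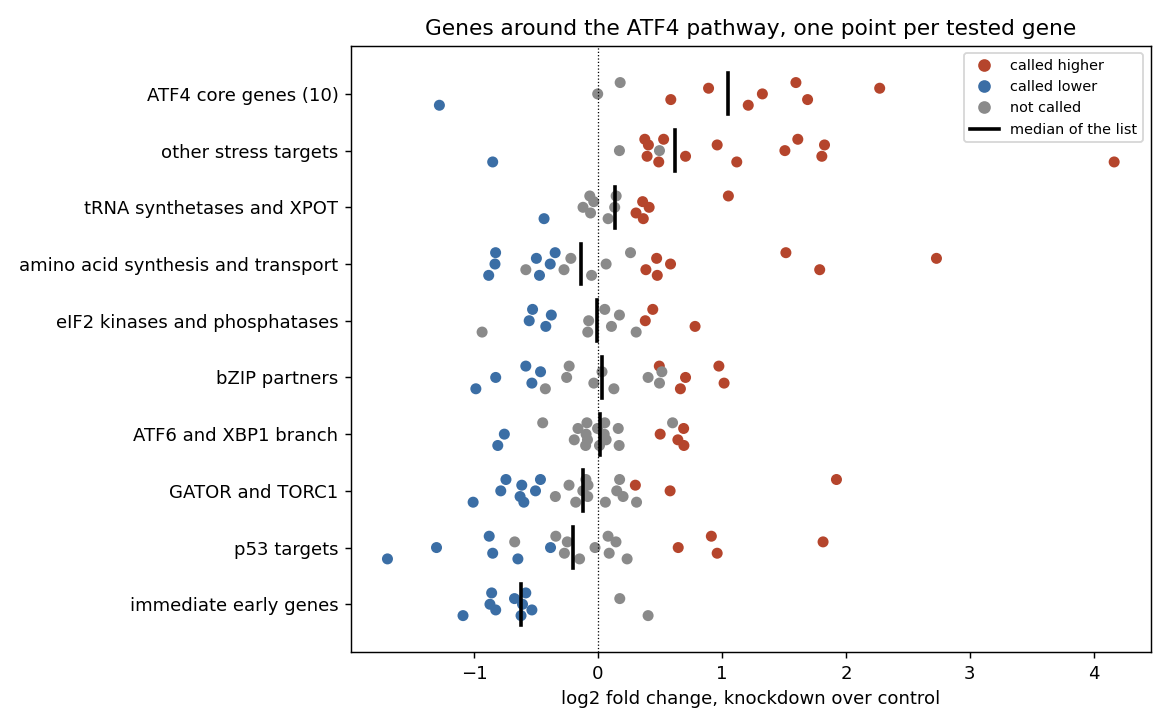
Log2 fold change, knockdown over control, of every tested gene of 10 lists (points; red called higher, blue called lower, grey not called), with the median of each list as a black bar. The medians of the ATF4 core genes and of the other stress targets, 1.05 and 0.62, lie to the right of the other lists, and the immediate early genes, at -0.62, lie to the left.

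The ATF6 and XBP1 branches of the ER stress response, which induce chaperones and degradation factors, gave 4 rises and 2 falls among 21 tested genes, with a median of 0.01. HSPA5, the main ER chaperone BiP, rose to 1229 ± 5.85 CPM in knockdown libraries, against 868 ± 56.4 CPM in control libraries (SD, n = 3 each), and ATF6 rose by 0.69. EDEM1 and MANF fell by 0.76 and 0.81 on the log2 scale. Without knockdown replicate 2 and control replicate 1, 7 were higher and 7 lower, and with a gene length offset 4 were lower. With that offset, calls lower over all tested genes went from 3088 to 3792.

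SESN2 holds back TORC1, and TORC1 phosphorylates 4E-BP1. Genes of the TORC1 machinery gave 3 rises and 8 falls among 23 tested (median -0.12), where 51.8% of all tested genes were called. The TORC1 subunits RPTOR and MLST8 fell by 1.01 and 0.74 on the log2 scale, and the translation scaffold EIF4G1 fell to 945 ± 133 CPM in knockdown libraries, against 1627 ± 34.9 CPM in control libraries (SD, n = 3 each). The Rag GTPase RRAGB, which brings TORC1 to lysosomes, rose by 1.92. When scaled by library size alone, or by limma on deposited FPKM, 5 of the list were higher. Over all tested genes, 3766 were called higher by library size alone and 3727 to 3743 by limma on FPKM, against 3284. Without knockdown replicate 2 and control replicate 1, 7 were higher and 12 lower.

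ATF3, SESN2 and GDF15 are also known targets of p53, and ATF3 is an immediate early gene. Among 20 tested p53 targets, 4 rose and 6 fell (median -0.20), a share near the 51.8% called over all tested genes. The cell cycle inhibitor CDKN1A fell to 33.0 ± 1.07 CPM in knockdown libraries, against 107 ± 9.06 CPM in control libraries, AEN fell by 0.88 on the log2 scale, and TP53INP1 rose by 1.82. Among 11 tested immediate early genes, 9 fell in edgeR and the other two were not called, with a median of -0.62. MYC fell to 68.6 ± 6.02 CPM in knockdown libraries, against 126 ± 7.19 CPM in control libraries, and KLF6, JUN and JUNB fell by 0.61, 0.58 and 0.53. The count of 9 was 5 without control replicate 2 and 4 without control replicate 3. Calls lower over all tested genes went from 3088 to 2308 and 2331 in the same fits. Without both libraries that stood apart, 1 was higher and 9 lower.

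For each of the 10 genes, the gene outside the set with the most similar profile over the 6 libraries was sought among 10004 genes averaging at least 5 CPM, as the smallest root mean square difference of centred log2 CPM. The nearest to ATF4 was B4GAT1, at 0.0224. SLC25A14 was nearest to DDIT3 (0.0623), TMEM87B to GDF15 (0.0336) and ODC1, which encodes ornithine decarboxylase, to EIF4EBP1 (0.0345). Within the set, the closest pair was DDIT3 and CHAC1 (0.175), whereas EIF4EBP1 was 0.658 from the member nearest to it. These distances describe 6 libraries in 2 groups and carry no test.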

How the data were processed

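The table the authors deposited gives, per the file headers, a read count and an FPKM value for each gene and library. The deposited FPKM values can be computed back from the counts, the gene lengths and the column totals. Per the labels' protocols, RNA came from a TRIzol extraction and libraries from an NEBNext Ultra II RNA kit. Neither the labels nor the header name an aligner, counter, genome build, annotation or strand setting, and coordinates of genes are as the table gives them (79% of 19852 identifiers share a start or end with GENCODE 29 on GRCh38).

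Counts were filtered with filterByExpr, scaled with TMM factors and tested with edgeR 4.0.16 in R 4.3.3 (quasi-likelihood, no covariates, 6 libraries). Standard errors are each log2 fold change divided by the root of its F. CPM are counts over TMM-scaled totals. The biological coefficient of variation was 14.2%. The test was tried on simulated counts beforehand. Those counts had no libraries that stood apart and fewer changed genes than were called here, so the trial does not bear on these features. Alternatives used DESeq2 1.42.0, limma 3.58.1 and others given in the closing section. The 10 genes, the lists and the tests were chosen with earlier results of these data known. Genes named beyond the 10 are SHMT2, paralogs, up to 4 called genes per list by adjusted p, or the 2 of highest mean where fewer than 2 were called, and the gene of nearest profile. Others are marked where they appear, apart from genes that overlap or flank a member and the summed markers.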

Additional observations from a re-analysis of the deposited data

How the results depend on the processing

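Over 19 alternatives, the 7 called rises and the fall of EIF4EBP1 kept their direction and their call each time. ATF4 was called at 0.27 with a gene length offset and at 0.16 with both libraries that stood apart left out (control replicate 1, knockdown replicate 2), and was not called in the other 17. ATF5, near 0, changed sign without a call with DESeq2 factors (0.0014), library size alone (0.073), a minimum mean of 1 CPM (0.0010), the DESeq2 test (0.0021), limma on log2(FPKM + 1) (0.066) or log2(FPKM + 0.1) (0.071) and the length offset (0.085). With each library left out in turn it ran from -0.21 to 0.12, and it was called at -0.33 without both libraries that stood apart, where 2 members were called lower. In that fit, context genes called went to 58 higher and 63 lower, against 43 and 40 with all libraries, while all tested genes called went to 4576 higher and 4559 lower, against 3284 and 3088. The causes were not tested. The median of the 10 was 0.75 by limma on log2(FPKM + 1), where the pseudocount shrinks low genes such as ASNS, and 0.91 to 1.10 with each library left out. An adjusted p below 0.01 left 2143 genes higher and 2023 lower among all tested.

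Whether replicate numbers pair the samples cannot be settled from these data. Deviations from group means correlated at -0.36, -0.34 and 0.37 across genes for numbers 1, 2 and 3, and not every library correlated best with its own number. The highest correlation, 0.49, was between knockdown replicate 2 and control replicate 1, the libraries that stood apart. With 3 libraries a group, the deviations within a group constrain each other. With the replicate block, 7 members were called higher and 1 lower, as without it, while EIF2AK2 was not called (adjusted p = 0.0877, edgeR) and TRIB1 was called lower (adjusted p = 0.0499, edgeR). Depth limits ASNS and NUPR1, whose control values rest on at most 18 counts.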

Other observations

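Calls among neighbouring genes are to be read against the shares of all tested genes, 26.7% higher and 25.1% lower. Of the 20 tested genes nearest to GDF15, 10 on each side, 7 were called lower (median log2 fold change -0.25, edgeR), while GDF15 itself rose. The neighbours of SESN2 had 4 called higher and 7 lower (-0.29), and those of DDIT3 had 3 higher and 6 lower (-0.14). Around ATF5, which was not called itself, 10 of 20 neighbours were called lower (median -0.55). The neighbours of ASNS had 2 called higher and 6 lower.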
